A study of Mus musculus with 6 samples.

Results

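The genes described here encode the proteins that detect DNA and RNA in the cytosol, and those that pass the alarm on. The set was fixed by name: Rigi (also called Ddx58), Ifih1, Dhx58, Cgas, Zbp1, Sting1 (also called Tmem173), Mavs, Tbk1, Ikbke and Trex1. It was chosen with earlier results of these data known. Each of the 10 matched 1 of the 55401 gene identifiers in the table of estimated counts, and all 10 passed the filter on low counts. BV2, an immortalised mouse microglial cell line, was given either vehicle or lipopolysaccharide (LPS), a surface molecule of Gram-negative bacteria. Each group held 3 libraries of poly(A)-selected RNA, and the labels gave no dose, no time and no statement that the libraries of a group were separate cultures. All libraries share the 1 cell line, and p-values therefore measure the spread between these libraries, which may be technical. The series is about regulators of inflammatory activation in microglia, and the comparison asks which of these genes differed with LPS.

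Cytosolic nucleic acids are read as a sign of infection or damage. The RIG-I-like receptors bind RNA and signal through Mavs on the mitochondrial surface, while cGAS binds double-stranded DNA and makes a cyclic dinucleotide that activates Sting1 on the endoplasmic reticulum. Both branches meet at the kinases Tbk1 and IKKe, the product of Ikbke, which phosphorylate the factors Irf3 and Irf7 and so switch on type I interferon genes. Trex1 degrades cytosolic DNA and keeps the DNA branch quiet. In microglia these pathways are known for antiviral defence and for interferon responses in injury and neurodegeneration. LPS itself is sensed at the cell surface and in endosomes by Tlr4, whose adaptor Ticam1 (TRIF) also signals through Tbk1.

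Levels are in CPM, the counts of a gene on a common scale of library size with TMM factors, and changes are log2 fold changes of LPS over Vehicle with a standard error (SE). The test was edgeR's quasi-likelihood test on 16371 genes, and a gene counts as called where its Benjamini-Hochberg adjusted p was under 0.05. Library totals ran from 45969690 to 59023474 estimated counts. Among spacings from 3 to 5, small counts clustered most at multiples of 3.71 to 3.78, depending on the library. Of the small values 39.0% to 40.9% lay on these multiples, where an even spread gives 26.1%. For this reason 1 count was not taken as 1 read. Of 11 marker genes of microglia and macrophages, 10 were above 1 CPM in every library, and their summed level was 2444 to 2739 CPM in Vehicle and 2051 to 2449 in LPS. Cx3cr1, a receptor of resting microglia, was low, at 2.33 CPM in Vehicle and 1.03 in LPS. Of the 11 markers 1 was called higher with LPS (Adgre1, 135 CPM in Vehicle and 223 in LPS) and 3 lower. That is 36.4% called, against 23.6% of all tested genes. The log2 fold changes of the 11 markers ran from -1.41 to 0.72, with a median of -0.44. The summed levels of 6 markers each were at most 8.21 CPM for astrocytes, 13.1 for neurons, 7.35 for the oligodendrocyte lineage and 4.21 for endothelial cells and fibroblasts. Of 6 lymphocyte markers, 5 were at 0 in every library and the sum was at most 0.0821 CPM. In bulk RNA, fewer cells making a transcript and less of it per cell cannot be told apart.

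Sequence from just before the transcription start is shown for both receptors of RNA that carry signalling domains and for both kinases. Within each pair 1 gene was called and the other was not. The log2 fold changes of Rigi and Ifih1 were close all the same, at 0.47 ± 0.09 and 0.43 ± 0.19 (SE). Whether the sequences bear on the calls was not tested. The 100 bases before the RefSeq start are given 5′ to 3′ on the strand of the gene (GRCm38.p6). They lie at chr4:40239826-40239925 for Rigi, chr2:62646256-62646355 for Ifih1, chr1:131279564-131279663 for Ikbke and chr10:121586795-121586894 for Tbk1, all on the minus strand. Capitals mark a match to a searched motif.
Rigi: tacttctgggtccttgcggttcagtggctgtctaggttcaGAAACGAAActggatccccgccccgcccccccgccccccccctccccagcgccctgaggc
Ifih1: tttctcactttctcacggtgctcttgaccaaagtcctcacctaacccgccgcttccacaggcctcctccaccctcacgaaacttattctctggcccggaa
Ikbke: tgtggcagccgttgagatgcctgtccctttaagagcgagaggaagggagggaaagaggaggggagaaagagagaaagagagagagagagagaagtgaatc
Tbk1: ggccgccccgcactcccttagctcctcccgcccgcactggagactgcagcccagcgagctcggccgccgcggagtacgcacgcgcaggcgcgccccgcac

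RefSeq windows of 300 bases (250 before and 50 after a start) were at hand for 7 of the 10 genes, with 8 windows in all as Trex1 has 2 starts. They were searched on both strands for the core of the interferon-stimulated response element (GAAA, any 2 bases, GAAA), the STAT site TTCNNNGAA and the NF-kB consensus. The response element core was in 3.44% of the 32851 windows of all genes, the STAT site in 8.30% and the NF-kB consensus in 8.46%. Rigi and Ifih1 each held a response element core, in the transcribed part of the window: TTTCGATTTC, its reverse complement, from base 3 in Rigi, and GAAACAGAAA from base 33 in Ifih1, counted from 1 at the start. The capitals in the Rigi stretch are GAAACGAAA, which begins at base -60, counted backwards from -1. That site matches GAAANGAAA, a form with 1 base fewer that was added after the window was read and is found in 3.17% of windows. One Trex1 window held an NF-kB match, GGGGGCCTCC from base -246, and the windows of Ikbke, Tbk1, Mavs and Cgas held none of these motifs. A match is a description of letters and shows no binding.

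Of the 10 genes 4 were called higher with LPS (Trex1, Ikbke, Dhx58 and Rigi) and 0 lower, by edgeR's quasi-likelihood test. Over all tested genes 23.6% were called, 12.7% higher and 10.9% lower. At an unadjusted p under 0.05, 6 of the 10 were higher and 1 (Cgas) was lower. The shares above are for adjusted p and cannot be set against this count, whose share over all genes was not computed. At the adjusted threshold DESeq2 called 4 higher and 1 lower, and limma voom called 4 higher and 0 lower. Over all tested genes DESeq2 called 2332 higher and 2162 lower, and limma voom 1993 and 1697. With edgeR these were 2082 and 1782. In 7 of the 10 genes no LPS library fell within the Vehicle range or the reverse, and this held for 40.8% of all tested genes. The median log2 fold change of the 10 genes was 0.45, and that of all tested genes was -0.02. By role, 2 of 3 RNA sensors, 1 of 2 kinases and the nuclease were called higher. Neither of the 2 adaptors and neither of the 2 sensors of DNA and Z-form nucleic acid was called by edgeR. Scaled by total counts alone, 42.2% of all calls were rises (53.9% with TMM), and the number of sensing genes called higher was 4 under both.

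**Figure D1:**
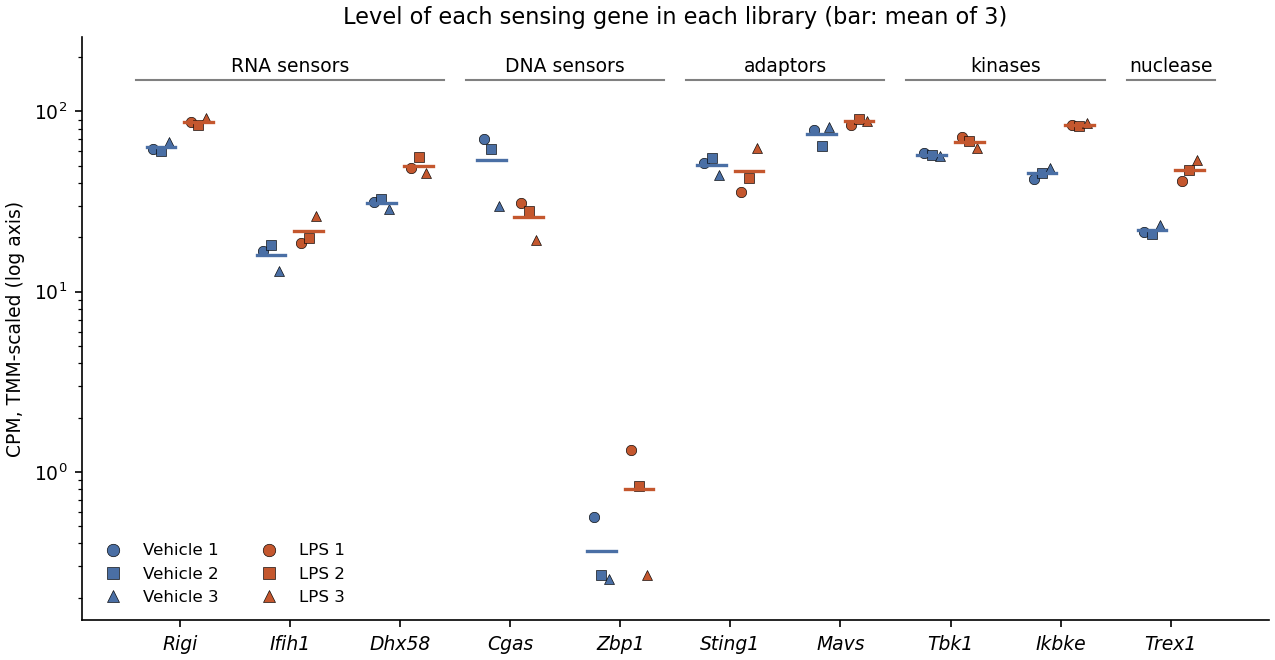
Levels of the 10 sensing genes (horizontal axis, grouped by role) in CPM on a log axis, 1 point per library with the shape giving the replicate number, and a bar for the mean of 3. The LPS points of Rigi, Ifih1, Dhx58, Mavs, Tbk1, Ikbke and Trex1 lie above all Vehicle points. Cgas in Vehicle 3 lies at 30.0 CPM apart from Vehicle 1 and Vehicle 2, and Zbp1 lies near 1 CPM or below.

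The RNA sensors came in at different levels and all had higher means with LPS. Rigi (ENSMUSG00000040296), a helicase that recognises RNA ends with a triphosphate, was at 61.8, 60.6 and 67.5 CPM in Vehicle 1 to 3 and at 87.3, 83.8 and 92.1 CPM in LPS 1 to 3. Every LPS library was above every Vehicle library. Rigi rose with a log2 fold change of 0.47 ± 0.09 (SE, edgeR adjusted p = 0.00731), or 1.39-fold. Dhx58 (ENSMUSG00000017830) encodes LGP2, a relative without the signalling domains that tunes the other two receptors. It was at 31.3, 32.8 and 28.9 CPM in Vehicle and at 48.6, 55.8 and 45.3 CPM in LPS. The groups were again separate, and Dhx58 rose 1.61-fold, with a log2 fold change of 0.69 ± 0.12 (SE, edgeR adjusted p = 0.00401). Both calls held under all 16 alternatives, the largest adjusted p being 0.0445 for Rigi (without Vehicle 2) and 0.0220 for Dhx58.

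Ifih1 (ENSMUSG00000026896) encodes MDA5, the receptor for long double-stranded RNA. It was at 16.9, 18.2 and 12.9 CPM in Vehicle and at 18.7, 19.8 and 26.2 CPM in LPS. The groups did not overlap, but the gap between Vehicle 2 and LPS 1 was small beside the spread within each group. The log2 fold change was 0.43 ± 0.19 (SE, edgeR adjusted p = 0.138), with an SE that was larger than that of Rigi. It was 0.26 without LPS 3, 0.29 without Vehicle 3 and 0.52 without Vehicle 2, while leaving out 1 library kept Rigi between 0.43 and 0.51. In Vehicle its highest library was 1.41 times its lowest, while the same ratio was 1.11 for Rigi. Within libraries the log2 ratio of Ifih1 to Rigi averaged -1.996 in Vehicle (SD 0.34, n = 3) and -2.04 in LPS (SD 0.21, n = 3). The exact permutation test over libraries, two-sided, gave p = 0.9 for this ratio.

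The sensors of DNA and of Z-form nucleic acid did not pass the test. Cgas (ENSMUSG00000032344), which encodes the cyclic GMP-AMP synthase, was at 70.0, 61.6 and 30.0 CPM in Vehicle and at 30.9, 28.0 and 19.3 CPM in LPS. Vehicle 3 fell among the LPS libraries and just below LPS 1, so the groups overlapped. The log2 fold change was -1.05 ± 0.34 (SE, edgeR adjusted p = 0.0712), the lowest of the 10 genes. The highest Vehicle library was 2.33 times the lowest, a spread that 97.3% of 10541 tested genes with a mean of at least 5 CPM stayed below, where the median gene had 1.17. Leaving out Vehicle 3 gave a log2 fold change of -1.34 ± 0.20, and Cgas was then called lower (edgeR adjusted p = 0.00567). DESeq2 also called it with all libraries (log2 fold change -1.06 ± 0.31, adjusted p = 0.00345), and the alternatives gave adjusted p-values between 0.00345 and 0.199.

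Zbp1 (ENSMUSG00000027514), a sensor of Z-form nucleic acid that starts necroptosis through Ripk3, was barely detected. Its values were 0.562, 0.267 and 0.253 CPM in Vehicle and 1.32, 0.834 and 0.267 in LPS. These came from 34, 13 and 12 estimated counts in Vehicle and 66, 44 and 13 in LPS. A floor of 3 steps is 11.1 to 11.3 counts per library, so Vehicle 2, Vehicle 3 and LPS 3 lay just above it. LPS 3 lay between Vehicle 3 and Vehicle 2, and the log2 fold change of 1.10 ± 0.66 did not pass the test (SE, edgeR adjusted p = 0.270). Leaving out 1 library moved this value between 0.56 (without LPS 1) and 1.63 (without Vehicle 1), with no call.

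Neither adaptor was called, with all libraries or under any of the 16 alternatives. Mavs (ENSMUSG00000037523), which relays both RNA receptors, was at 78.6, 64.3 and 82.4 CPM in Vehicle and at 84.3, 91.2 and 88.5 CPM in LPS. All LPS libraries were above all Vehicle libraries, with Vehicle 3 and LPS 1 close to each other. The log2 fold change was 0.23 ± 0.11 (SE, edgeR adjusted p = 0.181). Sting1 (ENSMUSG00000024349), the receptor of the cGAS product, was at 51.8, 54.8 and 44.6 CPM in Vehicle and at 36.0, 42.6 and 62.4 CPM in LPS. LPS 3 was above every Vehicle library while LPS 1 and LPS 2 were below them all. Its log2 fold change was -0.10 ± 0.20 (SE, edgeR adjusted p = 0.751). It was -0.37 ± 0.13 (SE, edgeR adjusted p = 0.0709) without LPS 3 and 0.05 ± 0.18 (SE, edgeR adjusted p = 0.892) without LPS 1, so the sign of the difference rested on single libraries.

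The kinases differed in how far they moved. Ikbke (ENSMUSG00000042349), the inducible kinase of the pair, was at 42.3, 45.4 and 48.6 CPM in Vehicle and at 83.8, 82.9 and 86.2 CPM in LPS. The LPS libraries lay within 1.04-fold of each other, a spread that only 2.66% of the 10541 genes stayed below. Ikbke rose 1.86-fold, with a log2 fold change of 0.89 ± 0.09 (SE, edgeR adjusted p = 0.000387), and was called under all 16 alternatives. Tbk1 (ENSMUSG00000020115), the constitutive kinase, was at 59.1, 57.3 and 56.6 CPM in Vehicle and at 72.0, 68.8 and 63.0 CPM in LPS. The groups did not overlap, with a log2 fold change of 0.24 ± 0.09 (SE, edgeR adjusted p = 0.107). Without LPS 3, Tbk1 was called higher (log2 fold change 0.28 ± 0.09, edgeR adjusted p = 0.0437), which makes 5 of the 10 genes higher. Calls rose over all tested genes too, with 2450 higher without LPS 3 against 2082 with all libraries.

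**Figure D2:**
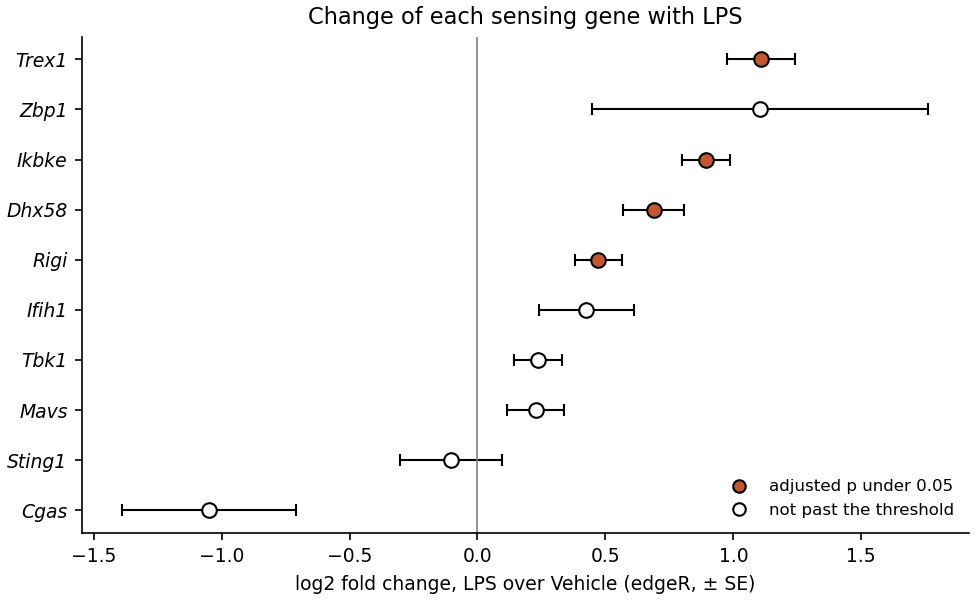
Log2 fold change of LPS over Vehicle for the 10 genes (edgeR, bars are ± SE, 3 libraries per group), filled where the adjusted p was under 0.05. The 4 filled points run from 0.47 for Rigi to 1.11 for Trex1, and the widest bars belong to Zbp1 and Cgas.

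Ratios of 2 genes within a library need no scaling between libraries, and 4 were compared. In Vehicle 1 to 3 Ikbke had 0.715, 0.792 and 0.858 estimated counts per count of Tbk1. In LPS 1 to 3 the ratio was 1.16, 1.20 and 1.37. It was thus below 1 in every Vehicle library and above 1 in every LPS library, and the mean changed 1.58-fold. The two-sided exact permutation test gave p = 0.1, the smallest that 3 against 3 libraries allow, and 0.2 after Benjamini-Hochberg adjustment over the 4 ratios. The design cannot reach 0.05 by this test. The log2 ratio of Sting1 to Mavs averaged -0.57 in Vehicle (SD 0.33, n = 3) and -0.94 in LPS (SD 0.39, n = 3), with overlapping groups (exact permutation p = 0.3, adjusted 0.4). The log2 ratio of Zbp1 to Cgas averaged -7.23 in Vehicle (SD 0.54, n = 3) and -5.27 in LPS (SD 0.83, n = 3), with groups that did not overlap (exact permutation p = 0.1, adjusted 0.2), but it rests on the low counts of Zbp1.

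**Figure D3:**
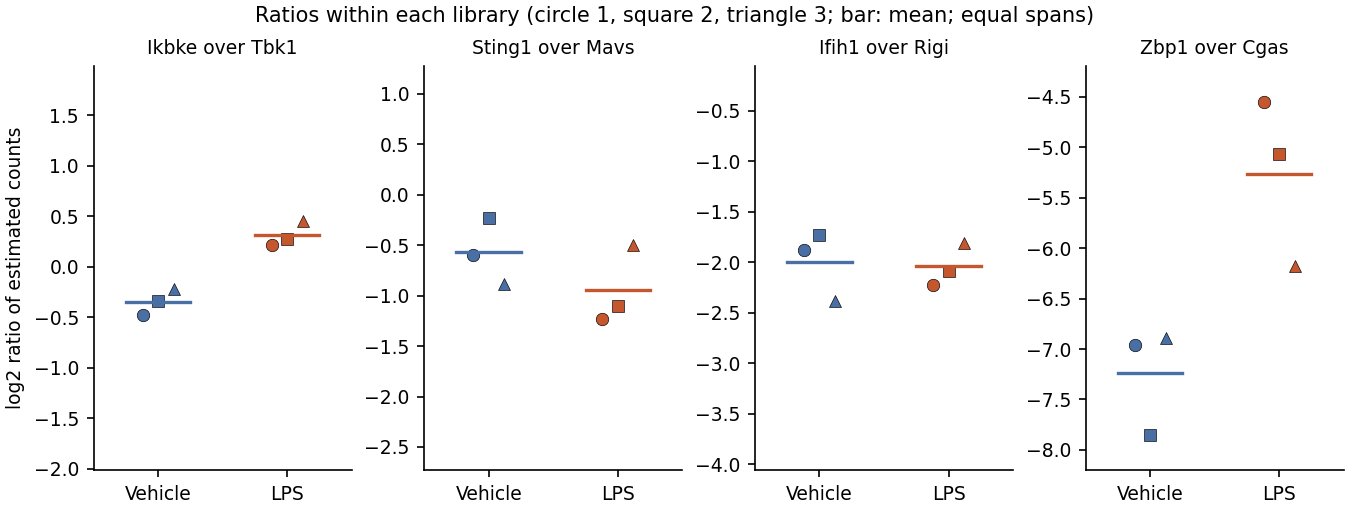
Log2 ratio of estimated counts of 2 sensing genes within each library, 1 panel per pair with axes of equal span, points for libraries (shape for the replicate number) and bars for the mean of 3. Ikbke over Tbk1 lies below 0 in all Vehicle libraries and above 0 in all LPS libraries, and Ifih1 over Rigi has nearly the same mean in both groups, -1.996 and -2.04.

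Trex1 (ENSMUSG00000049734), the main exonuclease for cytosolic DNA, had the highest fold change of the 4 called genes. It was at 21.4, 21.0 and 23.5 CPM in Vehicle and at 40.9, 47.3 and 53.8 CPM in LPS, with no overlap. The log2 fold change was 1.11 ± 0.13 (SE, edgeR adjusted p = 0.00071), or 2.15-fold, and the call held under all 16 alternatives. In the GENCODE M21 annotation every exonic base of Trex1 (1147 bases) is also exonic in Atrip, a gene of DNA damage signalling on the same strand. Atrip was at 41.3, 51.2 and 49.5 CPM in Vehicle and at 23.3, 18.9 and 25.3 CPM in LPS. It fell by 1.07 ± 0.15 on the log2 scale (SE, edgeR adjusted p = 0.0013), nearly the size of the Trex1 rise.

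The sum of Trex1 and Atrip was 62.8, 72.2 and 73.0 CPM in Vehicle and 64.2, 66.3 and 79.1 CPM in LPS. Its means were 69.3 ± 5.72 and 69.8 ± 8.07 CPM (SD, n = 3), a difference within the spread between libraries (two-sided exact permutation p = 0.9). The share of Trex1 in the sum was 31.8% ± 2.55 in Vehicle and 67.7% ± 3.83 in LPS (SD, n = 3), with no overlap (two-sided exact permutation p = 0.1, the smallest possible). Reads that match both genes can be assigned to either, and the part of such assignment in the values of Trex1 was not tested. Without Trex1 3 of the other 9 genes were called higher.

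**Figure D4:**
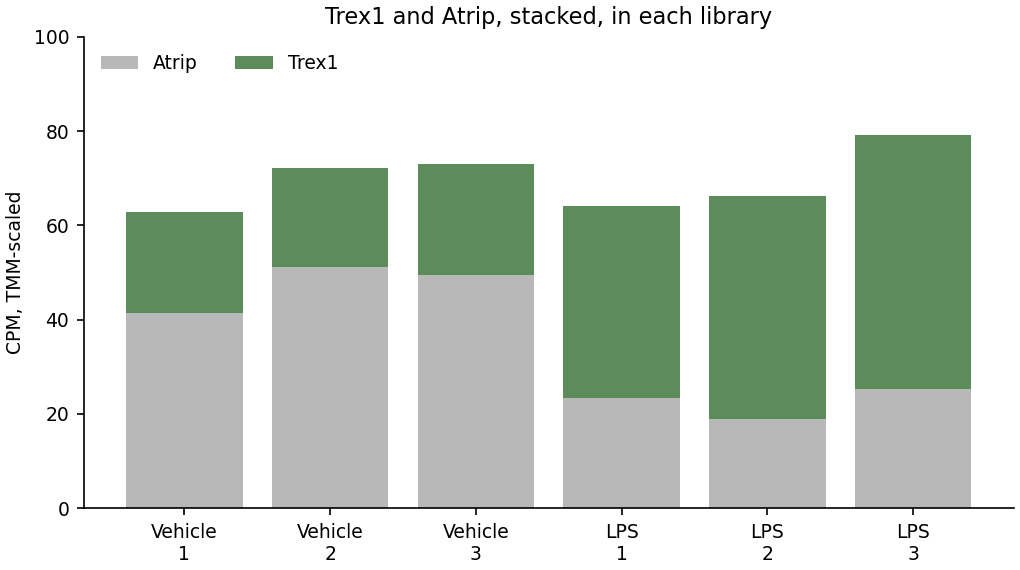
CPM of Atrip (grey, bottom) and Trex1 (green, top) stacked in each of the 6 libraries, with the bar height giving their sum. The sums lie between 62.8 and 79.1 CPM in all libraries, while the green part is 29.1% to 34.1% of the bar in Vehicle and 63.8% to 71.4% in LPS.

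Shared exons were small for the other genes. Dhx58 shares 4.31% of its exonic bases with an antisense gene, Cgas 4.87% with a pseudogene, and Ikbke 1.76% and 0.721% with 2 antisense genes, each of these partners averaging under 0.5 CPM in both groups. The 3 tested genes with a profile most like that of Trex1 over the 6 libraries were Prr13, Kif21b and Ell2. Likeness was the distance between centred log2 CPM, and their distances were 0.0636, 0.121 and 0.152 among 9811 genes with a mean of at least 5 CPM and a symbol other than a predicted one. Prr13 was at 61.9, 59.7 and 70.2 CPM in Vehicle and at 117, 133 and 154 CPM in LPS.

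Levels of different genes were compared per kilobase of the longest protein-coding transcript. In Vehicle the order was Mavs, Sting1, Trex1, Tbk1, Rigi, Ikbke, Cgas, Dhx58, Ifih1 and Zbp1. Mavs was at 24.6 ± 3.12 CPM per kilobase, Tbk1 at 19.1 ± 0.43, Cgas at 13.3 ± 5.20 and Ifih1 at 2.93 ± 0.50 (SD, n = 3). The ranges of neighbours overlapped from Mavs down to Tbk1 and from Ikbke down to Dhx58, and these genes could not be put in order beyond their spread. The range of Cgas, 7.42 to 17.3 CPM per kilobase, also took in part of that of Rigi, 15.6 to 17.4. In LPS, Trex1 led with 43.7 ± 5.94 CPM per kilobase, followed by Mavs at 28.8 ± 1.15 and Ikbke at 25.9 ± 0.52 (SD, n = 3). Rigi, Tbk1, Dhx58 and Sting1 came next with overlapping neighbours, and the range of Sting1, 15.6 to 27.2 CPM per kilobase, reached over that of Ikbke. Last above Zbp1 came Cgas at 6.45 ± 1.49 and Ifih1 at 3.94 ± 0.74 (SD, n = 3), which overlapped too. The place of Ikbke depends on the transcript: with its longest transcript of any kind it was at 7.75 CPM per kilobase in Vehicle and 14.4 in LPS. The place of Trex1 in both groups rests on exons that Atrip shares in full. The part of read assignment in it was not tested.

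Other genes of these pathways were read from 7 lists with 119 genes, of which 103 were tested, 20 were called higher and 9 lower by edgeR, with a median log2 fold change of 0.03. That is 28.2% called, against the 23.6% of all tested genes. Among regulators of the RIG-I-like receptors and Mavs, 2 of 15 tested genes rose and 1 fell. Zc3hav1, an antiviral RNA-binding protein that aids Rigi, rose from 188 ± 6.60 to 279 ± 15.4 CPM (SD, n = 3). Trim25, a ubiquitin ligase for Rigi, differed by 0.37 ± 0.09 on the log2 scale (edgeR adjusted p = 0.0193). Leaving out any library except LPS 3 ended the call of Trim25 (adjusted p up to 0.0877 in edgeR). Trim65, a ubiquitin ligase for the Ifih1 product, had -1.45 ± 0.42 (edgeR adjusted p = 0.0433). Its call ended without Vehicle 2, without Vehicle 3, without LPS 1 and without LPS 2 (adjusted p up to 0.133 in edgeR). It also ended with no filter, with limma voom and with edgeR's test before version 4, and Trim65 was called under 8 of the 16 alternatives in all. The list had 1 rise, Zc3hav1, when any library except LPS 3 was left out. Rises over all tested genes then numbered 1291 to 1549, against 2082 with all libraries.

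Among regulators of cGAS and Sting1, 4 of 17 tested genes rose and 3 fell. Abcc1, an exporter of the cyclic dinucleotide, rose from 184 ± 11.9 to 316 ± 13.2 CPM (SD, n = 3), and the channel subunit gene Lrrc8a and the trafficking gene Stx6 had log2 fold changes of 0.59 ± 0.13 and 0.75 ± 0.16. Lrrc8a was no longer called when Vehicle 1, Vehicle 2 or LPS 2 was left out (adjusted p up to 0.0628 in edgeR). Tmed2, a cargo receptor of the early secretory pathway, had -0.93 ± 0.26 (edgeR adjusted p = 0.0441), and its LPS libraries were at 313, 169 and 161 CPM. Leaving out any library except LPS 1, or the filter, ended its call (adjusted p up to 0.132 in edgeR). The number of rises was 2 without Vehicle 1, Vehicle 2 or LPS 2, and the number of falls was 1 without Vehicle 2, Vehicle 3 or LPS 2. Over all tested genes, rises numbered 1431, 1291 and 1549 without Vehicle 1, Vehicle 2 or LPS 2, against 2082 with all libraries. Falls numbered 1053, 1243 and 1153 without Vehicle 2, Vehicle 3 or LPS 2, against 1782.

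Genes that clear nucleic acids went both ways, with 2 of 14 tested higher and 3 lower. Rnaseh2b, a subunit of the RNase that removes RNA from DNA hybrids, fell from 54.1 ± 0.72 to 30.2 ± 1.58 CPM (SD, n = 3). Dnase2a, the lysosomal DNase, fell from 112 ± 2.04 to 64.3 ± 3.79 CPM (SD, n = 3). Their log2 fold changes were -0.84 ± 0.10 and -0.80 ± 0.09, and both were called under all 16 alternatives. Pld3, a lysosomal exonuclease, rose with 0.55 ± 0.10. Rnaset2b had 0.50 ± 0.14 (edgeR adjusted p = 0.0306) and can share reads with its near-identical copy Rnaset2a. Its call ended when any library except LPS 3 was left out (adjusted p up to 0.116 in edgeR), and Pld3 was then the 1 rise. Rises over all tested genes then numbered 1291 to 1549, against 2082 with all libraries.

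Among other cytosolic sensors of nucleic acid, 4 of 27 tested genes rose and 1 fell. The fall was that of Dhx9, an RNA helicase, from 314, 338 and 311 CPM in Vehicle to 118, 88.3 and 141 CPM in LPS. Its groups were far apart, with a log2 difference of -1.47 ± 0.16 (adjusted p = 0.000457 in edgeR). Oas3, which makes the oligoadenylates that activate RNase L, rose from 203 ± 12.8 to 341 ± 11.1 CPM (SD, n = 3). Its relatives Oasl1 and Oas1a had 1.22 ± 0.27 and 0.59 ± 0.13. The call of Oasl1 ended without LPS 3, without any Vehicle library and with no filter (adjusted p up to 0.0731 in edgeR), and that of Oas1a without Vehicle 2 or Vehicle 3 (up to 0.0558). Oas1a has near-identical copies that can share its reads. The list had 1 rise without Vehicle 2 or Vehicle 3, and 7 falls without LPS 3. Over all tested genes, rises numbered 1291 without Vehicle 2 and 1467 without Vehicle 3, against 2082 with all libraries. Falls numbered 2085 without LPS 3, against 1782.

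Scaffolds and regulators of Tbk1 and IKKe had 6 of 17 tested genes higher and 1 lower. The number of rises was 4 without Vehicle 2, 5 without Vehicle 3, LPS 1 or LPS 2, and 7 without LPS 3. Over all tested genes rises numbered 1291, 1467, 1546, 1549 and 2450 in that order, against 2082 with all libraries. Sqstm1, an autophagy receptor that Tbk1 phosphorylates, was at 532, 463 and 498 CPM in Vehicle and at 3353, 3965 and 2608 CPM in LPS. The groups were far apart, and Sqstm1 rose by 2.73 ± 0.16 on the log2 scale (edgeR adjusted p = 1.87e-05). Tnfaip3 and its partner Tnip1, which restrain the pathway, rose with 1.68 ± 0.10 and 1.33 ± 0.14. Ube2n, a ubiquitin-conjugating enzyme, fell from 68.0 ± 12.9 to 41.9 ± 3.41 CPM (SD, n = 3). Tank and Traf3, which bring Tbk1 to Mavs, were not called, with 0.11 ± 0.15 and -0.25 ± 0.10 (edgeR adjusted p = 0.624 and 0.113).

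Downstream, Irf7 rose and Irf3 was not called. Irf7 was at 146, 124 and 128 CPM in Vehicle and at 197, 200.5 and 178 CPM in LPS, with no overlap and a log2 difference of 0.53 ± 0.10 (SE, edgeR adjusted p = 0.00516). Irf3 was at 17.2, 20.5 and 17.3 CPM in Vehicle and at 19.8, 20.3 and 17.6 CPM in LPS, with overlapping groups (edgeR adjusted p = 0.752). Ifnb1, the interferon gene that both factors drive, was at 0.248, 0.144 and 0.0845 CPM in Vehicle and at 0.44, 0.872 and 0.39 CPM in LPS. The groups did not overlap, yet the values came from 4 to 46 estimated counts, with Vehicle 2 and Vehicle 3 under the floor of 3 steps, and the gene was not called (edgeR adjusted p = 0.0786). The 5 other interferon genes of the list were at 0 in every library. Of 8 partners of Zbp1 in cell death, 1 rose: Mlkl, the executor of necroptosis, from 79.9 ± 5.91 to 118 ± 6.77 CPM (SD, n = 3).

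**Figure D5:**
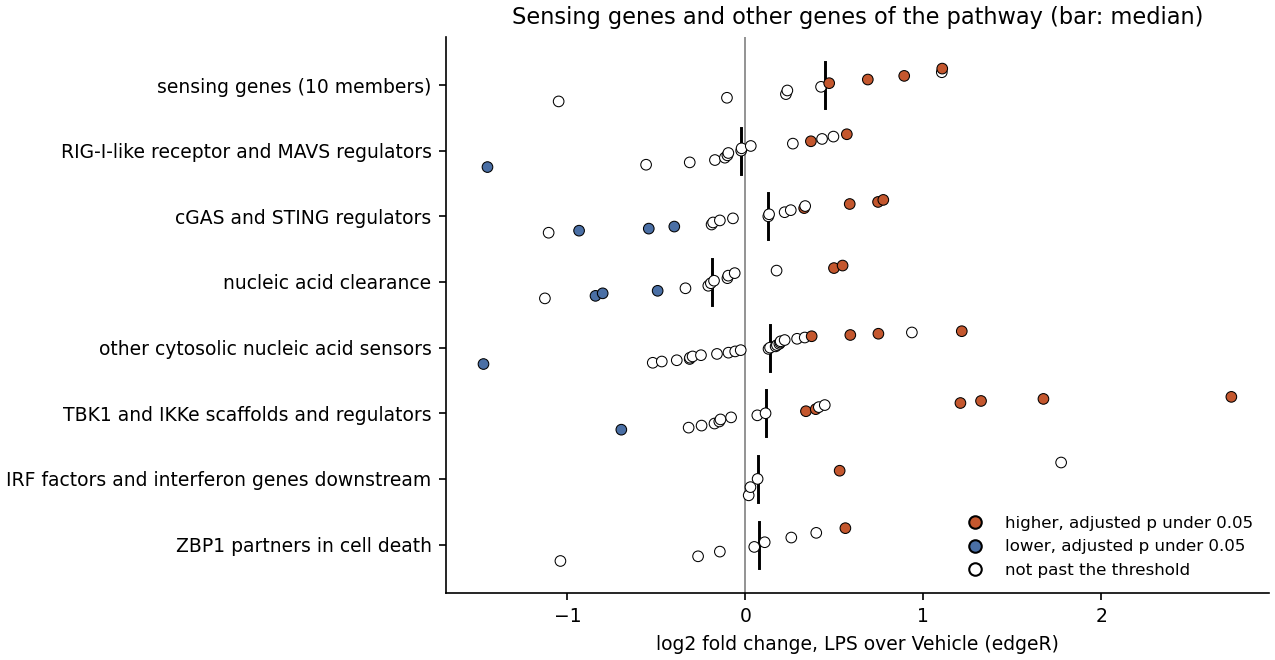
Log2 fold changes of LPS over Vehicle (edgeR) for the 10 sensing genes and the tested genes of 7 pathway lists, 1 point per gene, filled where the adjusted p was under 0.05, with a bar at the median. The medians of the 7 lists lie between -0.18 and 0.14, that of the sensing genes is 0.45, and Sqstm1 is the point at 2.73.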

How the data were processed

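The authors' deposited table holds expected counts, estimated for each gene in 3 Vehicle and 3 LPS libraries of BV2 cells. Every value was whole. The submitters' processing notes name StringTie 1.3.1, HISAT2, Bowtie2 2.2.8 and DESeq2 without saying what each did. Genome build and annotation were not given in the sources used here. Symbols came from a table of gene names (99.5% of identifiers matched), and transcript lengths and overlapping genes from GENCODE M21.

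The filter was filterByExpr (at least 10 counts, total at least 15) and the scaling TMM. The test was that of edgeR 4.0.16 under R 4.3.3 (quasi-likelihood F-test, two-sided, robust, all 6 libraries). The SE is the log2 fold change over the square root of F. Log2 CPM for likeness used a prior count of 2. Ratios were tested by exact permutation over libraries (scipy 1.17.1). Alternatives were other scalings (the size factors of DESeq2 1.42.0, upper quartile, total counts), no filter, a stricter filter (50 counts in 3 libraries), the DESeq2 Wald test, limma 3.58.1 voom, edgeR's test before version 4, the replicate number as a block, values divided by their spacing, and leaving out each library.

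The 10 genes, the lists and the tests were chosen with earlier results of these data known. Named were all 10 genes, in each list up to 4 called genes with the largest changes (both directions where both occur), Irf3, Irf7, Ifnb1, Tank and Traf3, and the 3 genes most like the called sensing genes with the largest rise and fall. No sensing gene was called lower, so only Trex1 has such genes. Floors cover counting error only, since PCR reads with no molecular identifiers are not separate molecules.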

Additional observations from a re-analysis of the deposited data

How the results depend on the processing

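Rigi, Dhx58, Ikbke and Trex1 were called higher under all 16 alternatives. None of these alternatives changes how reads that match both Trex1 and Atrip were assigned. The number of sensing genes called higher was 4 in each but the one without LPS 3, where it was 5. Over all tested genes 2450 were then called higher, against 2082 with all libraries. The number called lower was 1 (Cgas) with the DESeq2 Wald test, 1 with the replicate block, and 0 to 1 without single libraries, the 1 being without Vehicle 3. The replicate numbers are not stated to pair the libraries, so the block was not used as a pairing. The deviations of same-numbered libraries correlated at 0.14, -0.04 and 0.12, and those of differently numbered libraries at -0.193 to 0.099. The values for replicates 1 and 3 were thus above those of all differently numbered libraries, and these correlations do not settle whether libraries were paired. With the replicate block the log2 fold change of Cgas was -0.999 (adjusted p = 0.00391 in edgeR), no other call of a sensing gene changed, the calls of Trim65 and Rnaset2b ended, and 3816 genes were called in all, against 3864. The log2 fold change of Sting1 ran from -0.37 without LPS 3 to 0.048 without LPS 1, where its sign turned. The log2 ratio of Ifih1 to Rigi changed by -0.04 with all libraries and between -0.24 and 0.088 without 1 library, turning positive without Vehicle 1 (0.018), Vehicle 2 (0.088) or LPS 1 (0.049). The change in the log2 ratio of Ikbke to Tbk1 stayed between 0.59 and 0.72 without 1 library. Over all genes, leaving out 1 library gave 2344 to 4535 calls, 1291 to 2450 higher and 1053 to 2085 lower. The stricter filter and the division by the spacing left out Zbp1. Depth limits Zbp1 and Ifnb1 most, as some of their libraries lie near or under the floor.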
